A study of Mus musculus with 24 samples.

Results

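In 2 mouse small cell lung cancer lines with intact Kdm6a, 29128 of the 2460704 1 kb bins on chromosomes 1 to 19 carried trimethylated lysine 27 of histone H3 (H3K27me3) without methylation of lysine 4. These bins, called H3K27me3-only bins below, were chosen by control values alone. Merged H3K27me3 peaks covered at least 50% of the bin in both control lines, and no control list of H3K4me1 or H3K4me2 (mono- or dimethylated lysine 4) covered 50% of it. They spanned 29.1 Mb, or 1.18% of all bins, and made up 90.2% of the 32302 bins with H3K27me3 in both control lines. The other 3174 bins carried H3K4 methylation in a control list. Because these control lists selected the bins, control H3K27me3 is at 100% and control H3K4 methylation at 0% by construction, and neither is a result. A total of 2314 bins held some control H3K4 peak below the 50% limit.

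H3K27me3 is placed by Polycomb repressive complex 2 (PRC2) and marks silenced genes, above all regulators of embryonic development. H3K4me2 lies at promoters and enhancers that are active or poised, and H3K4me1 at enhancers and the flanks of promoters. Where H3K27me3 and H3K4 methylation meet at one promoter the state is called bivalent. H3K4me3, the mark by which that state is usually defined, was not analysed here. KDM6A, also called UTX, removes methyl groups from H3K27 and belongs to the KMT2C and KMT2D complexes that methylate H3K4.

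All 4 lines were early passage cultures from tumours of the RPP model, a mouse model of small cell lung cancer that lacks the tumour suppressors Rb1, Trp53 and Rbl2. The control lines 159-1 and 1014 grew out of tumours that carried a control guide (sgControl, Kdm6a intact). Kdm6a had been targeted (sgKdm6a) in those that gave the mutant lines 236L and 236R. The cells were not treated, were grown in HITES medium with serum and were collected 24 h after they were placed in ultra-low attachment plates. The sample labels give 2 mM DSG, a crosslinker, for the KDM6A libraries and none for the histone mark libraries. Chromatin immunoprecipitation with sequencing (ChIP-seq) gave 1 peak list per library for H3K27me3, H3K4me2 and H3K4me1 in each line and for KDM6A in the control lines, 14 lists in all. Whether 236L and 236R derive from 1 mouse or 2 is not stated in the labels, so the spread between them may understate that between tumours, and genotype cannot be told apart from any other difference between these tumours. No list checks the loss of KDM6A protein in the mutant lines.

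Peaks are listed without read counts, so the depth of each library is unknown. H3K27me3 lists differed much in length: they covered 45.3 Mb in 159-1, 110 Mb in 1014, 13.6 Mb in 236L and 29.4 Mb in 236R. H3K4me2 lists covered 71.9 to 85.9 Mb and H3K4me1 lists 108 to 134 Mb. The H3K27me3 and H3K4me2 libraries of 236L stood apart. In its H3K27me3 list 39.6% of marked bins also carried H3K4me2 of the same line, against 4.49 to 11.8% in the other 3 lines. Its H3K4me2 list covered the gene ends of 4 of 4 macrophage markers (21.3 kb summed over Cd68, Csf1r, Adgre1 and Lyz2), against 2 of 4 and 2.36 to 3.74 kb in the other lines, where Adgre1 was at 0. The 6 neuroendocrine markers reported (Neurod1, Insm1, Chga, Ncam1, Uchl1 and Calca) carried H3K4me2 in every line (17.7 kb summed in 236L and 25.4 to 29.4 kb in the others). H3K27me3 lay at 5 of these 6 in 236L, at Neurod1 alone in the control lines and at none in 236R. Among the other lists, tuft cell markers had H3K4me2 at 2 to 4 of 4 genes (4.77 to 7.31 kb) and lung epithelial markers at 3 of 3 in every line (5.38 to 6.95 kb). Fibroblast markers had it at 2 of 3 in every line (2.79 to 6.49 kb, the mutant lines being higher, with Col3a1 at 0). T and B cell markers had it at 1 of 4 (2 of 4 in 236L) and endothelial markers at 1 or 2 of 3, with Pecam1 at 0. The part of these features in the results below was not tested, so each mutant line is given by itself and bins marked in both lines are counted separately.

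The promoters that best show the range of states come from genes named by a fixed rule whose start lay in an H3K27me3-only bin. Each sequence below is the 250 bases before the gene start, 5′ to 3′ on the gene's own strand, from RefSeq (GRCm38.p6, the mm10 assembly), with CG dinucleotides in capitals. The first 3 lay in bins that kept H3K27me3 and gained H3K4me2 and H3K4me1 in both mutant lines.
Hoxa5: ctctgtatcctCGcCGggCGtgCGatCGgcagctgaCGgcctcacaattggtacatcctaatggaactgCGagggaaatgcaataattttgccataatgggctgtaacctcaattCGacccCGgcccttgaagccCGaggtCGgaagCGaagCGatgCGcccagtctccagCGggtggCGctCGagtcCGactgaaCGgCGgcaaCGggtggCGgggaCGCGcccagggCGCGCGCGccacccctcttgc
Hoxa6: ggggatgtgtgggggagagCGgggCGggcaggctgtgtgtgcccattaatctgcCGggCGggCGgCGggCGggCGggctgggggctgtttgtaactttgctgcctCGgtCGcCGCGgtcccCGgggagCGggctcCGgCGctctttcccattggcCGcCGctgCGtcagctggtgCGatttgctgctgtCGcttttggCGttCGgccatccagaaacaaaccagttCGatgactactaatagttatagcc
Msx2: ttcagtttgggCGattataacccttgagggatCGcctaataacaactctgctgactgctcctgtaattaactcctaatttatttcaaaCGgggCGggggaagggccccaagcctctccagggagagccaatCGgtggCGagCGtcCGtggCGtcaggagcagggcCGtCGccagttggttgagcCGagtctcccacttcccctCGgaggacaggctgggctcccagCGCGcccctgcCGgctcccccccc
The bin of the next promoter had H3K4me2 and no H3K27me3 in both mutant lines.
Snx10: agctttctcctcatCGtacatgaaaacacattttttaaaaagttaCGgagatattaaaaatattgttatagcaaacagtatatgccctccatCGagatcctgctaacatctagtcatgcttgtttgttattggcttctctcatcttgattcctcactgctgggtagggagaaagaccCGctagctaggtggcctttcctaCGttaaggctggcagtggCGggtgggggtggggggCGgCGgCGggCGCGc
The bin of Hoxd4 kept H3K27me3 in 236R and gained no H3K4 methylation in either line.
Hoxd4: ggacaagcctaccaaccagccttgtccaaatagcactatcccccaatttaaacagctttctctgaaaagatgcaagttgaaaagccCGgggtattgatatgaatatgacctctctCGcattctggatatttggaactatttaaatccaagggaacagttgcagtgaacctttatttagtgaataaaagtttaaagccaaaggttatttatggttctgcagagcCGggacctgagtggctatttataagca
The bin of Cpxm2 had none of the 3 marks in either mutant line.
Cpxm2: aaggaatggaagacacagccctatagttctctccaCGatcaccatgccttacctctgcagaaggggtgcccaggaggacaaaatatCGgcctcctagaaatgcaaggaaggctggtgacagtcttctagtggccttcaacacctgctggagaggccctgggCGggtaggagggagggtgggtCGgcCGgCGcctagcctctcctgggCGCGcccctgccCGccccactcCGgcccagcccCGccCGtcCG
Hoxa5 (chr6:52204588-52204837), Hoxa6 (chr6:52208673-52208922) and Msx2 (chr13:53472781-53473030) are homeobox transcription factors, and all 3 lie on the minus strand. Their 250 bases held 28, 24 and 16 CG dinucleotides. Snx10, a sorting nexin of endosomes (chr6:51523653-51523902, plus strand), held 11 CG and Hoxd4 (chr2:74721728-74721977, plus strand) held 3. Cpxm2, a carboxypeptidase-like secreted protein (chr7:132154742-132154991, minus strand), held 13.

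A bin is called kept where H3K27me3 peaks of a mutant line covered at least 50% of it, and H3K4 methylation is called gained on the same limit. Most H3K27me3-only bins had no H3K27me3 peak of that extent in the mutant lines. Of the 29128 bins, 3491 (12.0%) kept the mark in 236L and 9608 (33.0%) in 236R, while 2498 (8.58%) kept it in both and 18527 (63.6%) in neither. The share kept in both lines over every bin with control H3K27me3 was 11.3%. Bins that carried H3K4 methylation in the controls kept H3K27me3 more often, at 55.2% in 236L, 52.5% in 236R and 36.6% in both. The difference between the 2 kinds of bin was -43.2 percentage points in 236L and -19.5 in 236R (mean -31.3 ± 16.8, SD, n = 2 lines). An exact sign-flip permutation test over 2 lines gives p = 0.5 at best, which is the value reached (two-sided). The share kept in H3K27me3-only bins was thus lower in 236L than in 236R, while in bins with control H3K4 methylation the lines lay closer together. With peaks of a −log10 q of at least 3 the mean difference was -17.4 points and with lists trimmed to equal covered length -18.4.

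A small part of the H3K27me3-only bins carried H3K4me2 in the mutant lines. This held for 1769 bins (6.07%) in 236L, 1402 (4.81%) in 236R and 782 (2.69%) in both. In bins that no control list of the 3 marks covered by at least 50%, called unmarked bins, the shares were 0.693%, 0.215% and 0.0565%. Of the unmarked bins 4.79% touched a control H3K4 peak, and these had H3K4me2 at 4.16% in 236L and 2.79% in 236R. Over every bin without control H3K4 methylation, 0.103% had H3K4me2 in both mutant lines. The gain was thus 5.38 percentage points above unmarked bins in 236L and 4.60 in 236R (mean 4.99 ± 0.553, SD, n = 2 lines; exact sign-flip permutation p = 0.5, the smallest possible). The mean was 2.74 points without 159-1 in the choice of bins, 3.12 where no base of control H3K4 peaks was allowed and 2.46 over 5 kb from such peaks. It was 15.9 with peaks of a −log10 q of at least 3 and 17.6 with lists trimmed to equal length. These 2 settings also shorten the control H3K4 lists, which then exclude fewer bins. Bins that touched a control H3K4 peak made up 7.97% of the H3K27me3-only bins. They had H3K4me2 in both mutant lines at 17.2%, so part of the bins called gained already touched control H3K4 methylation.

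H3K4me1 was present in 2314 of the H3K27me3-only bins (7.94%) in 236L, 1808 (6.21%) in 236R and 525 (1.80%) in both. Unmarked bins gave 2.82%, 0.718% and 0.118%, and the share in both lines over all bins without control H3K4 methylation was 0.147%. The difference from unmarked bins was 5.12 points in 236L and 5.49 in 236R (mean 5.31 ± 0.259, SD, n = 2 lines; exact sign-flip permutation p = 0.5, the smallest possible). Without 159-1 in the choice of bins the mean was 3.26 points and over 5 kb from control H3K4 peaks 3.21. Where no base of such peaks was allowed it was 3.91. It was 12.8 with peaks of a −log10 q of at least 3 and 15.8 with lists trimmed to equal length, which again shorten the control H3K4 lists. Bins that touched a control H3K4 peak had H3K4me1 in both mutant lines at 11.3%. The H3K4 marks overlapped within a line. Bins with both H3K4 marks made up 43.0% of the H3K4me1 bins and 56.3% of the H3K4me2 bins in 236L, and 55.8% and 72.0% in 236R.

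**Figure D1:**
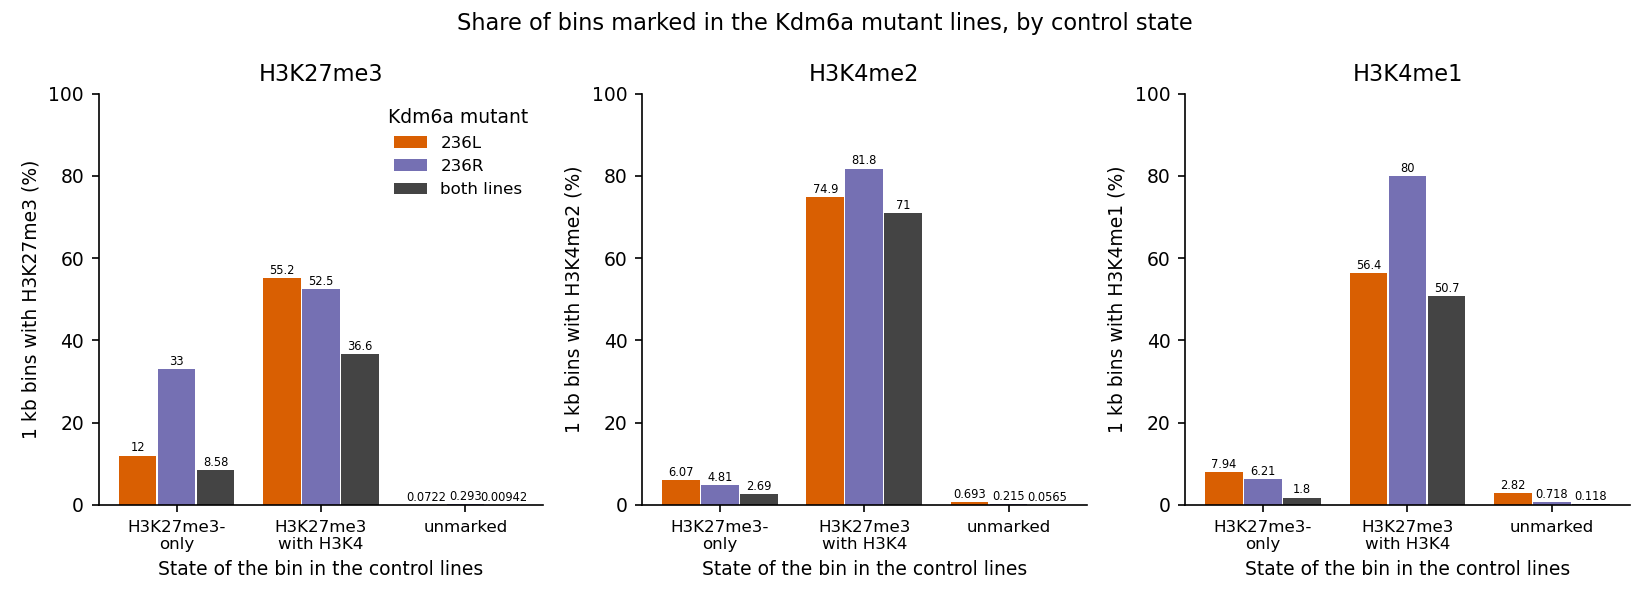
Share of 1 kb bins (y axis, %) with H3K27me3, H3K4me2 or H3K4me1 in 236L, 236R and both mutant lines, by the state of the bin in the control lines (x axis). H3K27me3-only bins kept H3K27me3 less often than bins with control H3K4 methylation (12.0 and 33.0% against 55.2 and 52.5%) and carried H3K4me2 more often than unmarked bins (6.07 and 4.81% against 0.693 and 0.215%).

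The rule was also applied with 1 control line at a time, so that the other control line did not choose the bins. With the rule applied to 1014 alone, 99858 bins qualified, of which 29.8% had H3K27me3 in the held-out control 159-1, 5.10% in 236L and 16.8% in 236R. H3K4me2 lay in 0.426% of these bins in 159-1, 3.78% in 236L and 2.75% in 236R, and H3K4me1 in 1.65, 6.35 and 4.07%. With the rule applied to 159-1 alone, 39242 bins qualified. H3K27me3 was found in 75.0% of them in the held-out control 1014, 9.45% in 236L and 27.3% in 236R. H3K4me2 lay in 0.530, 5.37 and 4.29% and H3K4me1 in 0.492, 7.41 and 5.45% in the same order. In all 6 comparisons both mutant lines lay on the same side of the held-out control line. An exact permutation test of 2 lines against 1 cannot give less than p = 0.333, which each of the 6 reached. The held-out 159-1 list of H3K27me3 is also longer than either mutant list, and the part of list length in the lower H3K27me3 shares was not tested. For H3K4me2 the deposited file names of the control lists name the other line than the labels do. With the lists assigned by name the held-out controls had 1.00 and 0.687% against 3.13 to 5.43% in the mutant lines.

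The bins formed 14317 domains, that is runs of adjacent bins. The median domain was 1 kb long, the mean 2.03 kb, the 90th percentile 4 kb and the longest 32 kb, and 181 domains reached 10 kb. The number of domains was 34591 without 159-1 in the choice of bins, 6734 with whole bins covered, 1393 with peaks of a −log10 q of at least 3 and 7774 with gaps of up to 3 bins joined. Longer domains kept H3K27me3 more often. In domains of 1 kb the mark was kept at 5.49% of bins in 236L and 21.4% in 236R, and in domains of 10 kb or more at 32.8 and 57.1%. H3K4me2 went from 4.50 and 3.36% of bins to 9.64 and 9.47%. H3K4me1 went from 4.29 to 12.3% in 236R and stayed between 7.21 and 8.88% in 236L. Of the 181 long domains, 119 held a kept bin in 236L and 158 in 236R, and 67 held a bin with H3K4me2 in both mutant lines.

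**Figure D2:**
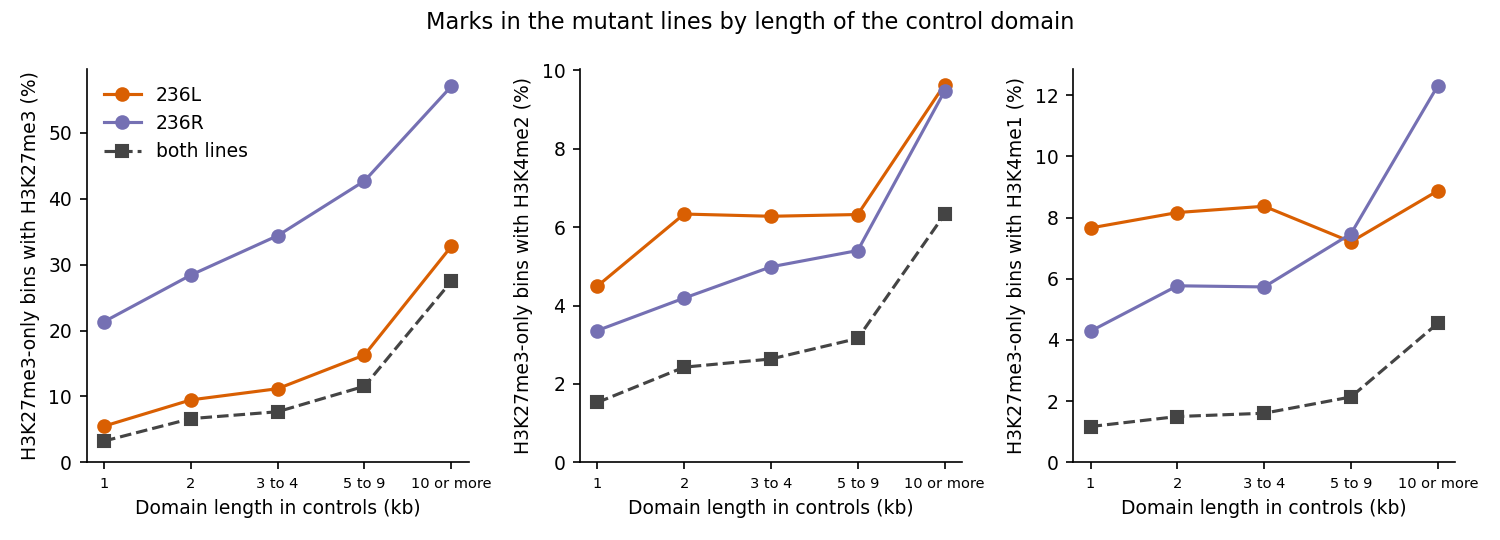
H3K27me3-only bins (y axis, % of bins) with H3K27me3, H3K4me2 or H3K4me1 in each mutant line, and in both, by length of the control domain (x axis, kb). H3K27me3 was kept at 5.49% (236L) and 21.4% (236R) of bins in 1 kb domains and at 32.8 and 57.1% in domains of 10 kb or more.

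The longest domains lay at developmental regulators and at the glutamate receptor gene Grik3. The first, chr15:102945001-102977000 (32 kb), spans Hoxc10 and Hoxc11, which pattern the posterior body axis, with the long noncoding RNA Hotair. It kept H3K27me3 at 26 of its 32 bins in 236L and at all 32 in 236R, and had H3K4me2 in 5 and 6. The second, chr4:125470001-125501000 (31 kb), covers the start of Grik3, a kainate receptor subunit, and kept 13 and 26 bins with H3K4me2 in 3 and 1. A pair of 26 kb domains followed. The one at Msx2 (chr13:53452001-53478000), a factor of skull and limb development, kept 11 and 19 bins and had H3K4me2 in 4 and 6. The one at Hoxc4 (chr15:103022001-103048000) kept 13 and 21 with H3K4me2 in 3 and 2.

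Of the 10 longest domains, 4 that lay outside developmental regulators had no H3K4me2 in either line. At the collagen gene Col6a3 (chr1:90807001-90829000, 22 kb) 236L kept no bin and 236R kept 10, and H3K4me2 was in none. A 20 kb domain with no annotated gene (chr4:124022001-124042000) kept 2 and 8 bins, and 2 further 20 kb domains within Grik3 kept 2 and 14 and 0 and 10, with H3K4me2 in none of the 3. A further 3 domains of 20 kb, tied with the last of the 10, are named after their values were seen. The one at Ttll6, a tubulin polyglutamylase gene (chr11:96164001-96184000), kept 18 and 19 bins and had H3K4me2 in 0 and 2. At Evx1, a homeobox gene beside HoxA, a 20 kb domain (chr6:52305001-52325000) kept 20 and 18 bins and had H3K4me2 in 6 and 4. At Olig2, a factor of oligodendrocytes and motor neurons, another (chr16:91206001-91226000) kept 12 and 16 with H3K4me2 in 4 and 4. A 20 kb domain over Hoxd3 and Hoxd4 (chr2:74720001-74740000) kept 7 and 17 bins and had H3K4me2 in 2 and 3.

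H3K4me2 in both mutant lines covered the most bins in the HoxA cluster. The 21 kb domain over Hoxa3, Hoxa5, Hoxa6 and Hoxa7 (chr6:52200001-52221000) had it in 9 bins in 236L, 7 in 236R and 7 in both, while H3K27me3 was kept at 18 and 21 of the 21 bins. Its neighbours over Hoxa9 and Hoxa10 (chr6:52224001-52239000, 15 kb) and over Hoxa10 and Hoxa11 (chr6:52240001-52256000, 16 kb) each had H3K4me2 in 5 bins of both lines. They kept H3K27me3 at 14 and 15 bins, and at 13 and 14. The other 2 of the first 5 domains were at Otx2 (chr14:48661001-48676000, 15 kb), a factor of forebrain and eye, and at Six3 (chr17:85608001-85618000, 10 kb), likewise of forebrain and eye. Both had H3K4me2 in 5 bins of both lines, and H3K27me3 was kept at 13 and 10 bins at Otx2 and at 7 and 9 at Six3.

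**Figure D3:**
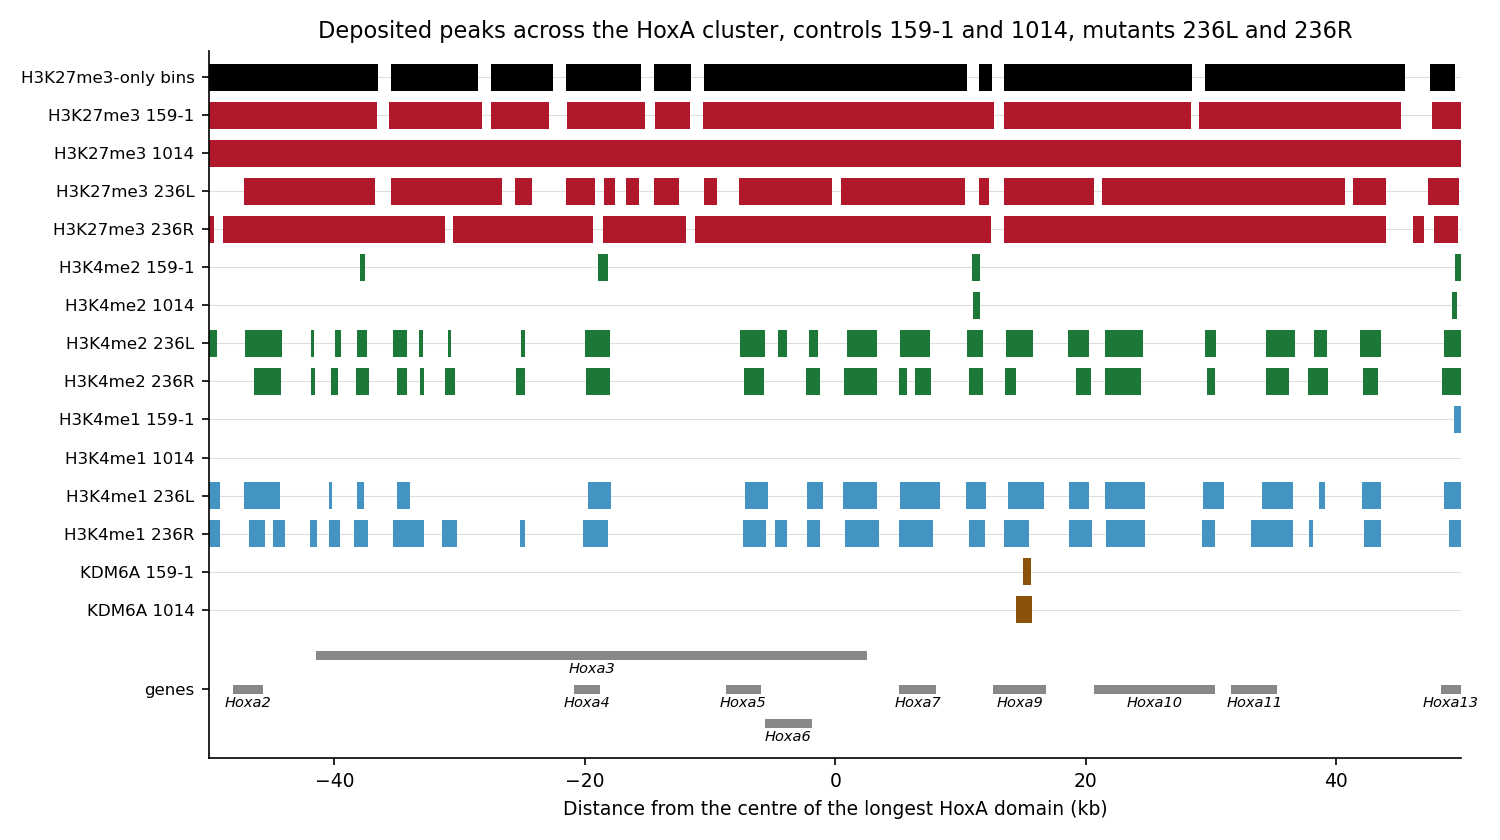
Deposited peaks of each list across 100 kb of the HoxA cluster (x axis, distance in kb from the centre of the 21 kb domain; each row is 1 list, each block a merged peak, gene bodies below). H3K27me3 covered most of the cluster in all 4 lines, while blocks of H3K4me2 and H3K4me1 recur at near positions in 236L and 236R and are few or absent in 159-1 and 1014. H3K27me3-only bins were chosen for lacking control H3K4 methylation. The centre domain ranked first for bins with H3K4me2 in both mutant lines. The contrast between control and mutant lines is thus in part set by these choices.

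HOX genes, which set position along the body axis, held the densest set. Of 39 HOX genes, 31 had at least 2 kb of H3K27me3-only bins within the gene or 10 kb to either side, where 11.1% of all 20665 protein-coding genes did (2291 genes). The median was 21 kb a gene over the 39, against 0 kb over all genes. HoxA, HoxC and HoxD carried them at 87.3, 91.9 and 77.1% of their windows and HoxB at 19.9%. Over the 354 bins of the list, 67.0% kept H3K27me3 in 236L and 85.6% in 236R, and 22.0 and 21.2% had H3K4me2. At least 2 kb of these bins had H3K4me2 in each mutant line at 29 of the 31 genes, compared with 9.47% of the 2291 genes. For H3K4me1 the count was 27 of 31 beside 8.34% of all.

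The 4 clusters differed. In HoxA (110 bins) 78.2% of bins kept H3K27me3 in 236L and 93.6% in 236R, and 25.5% had H3K4me2 in both lines, as did 25.5% for H3K4me1. HoxC (125 bins) kept 77.6 and 92.8% with H3K4me2 in 10.4% of bins in both lines. HoxD (91 bins) kept 33.0 and 68.1% with H3K4me2 in 13.2% of bins in both. The 28 bins of HoxB kept 85.7 and 78.6%, and 1 of them had H3K4me2 in both lines.

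Among single HOX genes, Hoxa3 had the most bins with H3K4 methylation, in a window of 65 kb that spans other HoxA genes. Of its 58 bins 46 kept H3K27me3 in 236L and 55 in 236R, 18 and 16 had H3K4me2 and 20 and 21 had H3K4me1. Hoxa10 had H3K4me2 in 11 and 10 of 27 bins and kept H3K27me3 at 26 and 27. Hoxa11 had H3K4me2 in 9 and 9 of 23 bins. Hoxa9 had 10 and 7 of 23, Hoxa7 9 and 6 of 22, Hoxa6 9 and 7 of 23 and Hoxa5 9 and 8 of 22. As a share of bins, H3K4me2 was lower at Hoxa3 than at each of these other genes in 236L. In 236R this held for all but Hoxa7. Windows of neighbouring HOX genes share bins, so these genes are not separate sites. In the other clusters the share of the window in H3K27me3-only bins was highest at Hoxd4 (28 of 29 kb), Hoxc11 and Hoxc12 (22 of 23 kb each), Hoxc9 (26 of 28 kb), Hoxc10 (24 of 26 kb) and Hoxc4 (36 of 39 kb). At these 6 genes H3K4me2 lay in 2 to 8 bins of 236L and 2 to 5 of 236R, and the share of kept bins was lowest at Hoxd4 (8 and 21 of 28). Hoxd3 (49 kb) kept 13 and 37 bins with H3K4me2 in 7 and 9, and Hoxc6 (29 kb) kept 25 and 29 with 8 and 5.

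Homeobox genes outside the HOX clusters followed at a lower level. Of 104 such genes 73 held at least 2 kb of H3K27me3-only bins, beside 11.1% of all genes. Of the bins of this list 47.4% were kept in 236L, 50.7% in 236R and 33.3% in both. H3K4me2 lay in 16.3 and 16.8% of bins. Of the 73 genes 35 gained it over 2 kb in each line, beside 9.47% of all 2291 genes. Genes with more such bins can reach 2 kb more readily. Pitx1, which specifies the hindlimb, had 30 of 32 kb in such bins, of which 13 and 15 kept H3K27me3 and 5 and 7 had H3K4me2. Msx2 had 25 of 27 kb, with 11 and 19 kept and H3K4me2 in 4 and 6. Hmx1, a factor of eye and ear development, kept 24 and 26 of 29 bins. Six3 had 17 kb of such bins, with H3K4me2 in 6 and 8. The longest total was at Pax5, the B cell regulator, with 85 kb of which 11 and 1 bins were kept and 3 and 5 had H3K4me2. Pax3, a factor of neural crest and muscle, had 32 kb with 11 and 21 kept and H3K4me2 in 6 and 5.

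Of 85 other developmental transcription factors 61 held such bins, beside 11.1% of all genes, and 35.7 and 54.3% of the bins were kept. Of the 61 genes 29 gained H3K4me2, beside 9.47% of all 2291 genes. Hand2, a factor of heart and limb, kept 16 and 7 of 23 bins with H3K4me2 in 8 and 4. Gata3, a regulator of T cells and several epithelia, kept 10 and 15 of 26 with H3K4me2 in 7 and 10 and H3K4me1 in 11 and 9. Foxf2, a mesenchymal factor, kept 3 and 12 of 17 with H3K4me2 in 7 and 5. Tbx5, a factor of heart and forelimb, kept 13 and 49 of 63 bins but had H3K4me2 in 1 and 2. Gata4, of heart and endoderm, kept 5 and 36 of 43 with H3K4me2 in 7 and 5. Ebf3 (65 kb) kept 6 and 9 bins and Runx2 (42 kb), the bone regulator, kept 0 and 7. Kept bins were thus spread unevenly within the list, from few at Ebf3 and Runx2 to most at Tbx5 and Gata4 in 236R.

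In the list of neuronal basic helix-loop-helix and neuroendocrine genes 5 of 24 (20.8%) held these bins, beside 11.1% of all genes, and they were regulators of neuron formation. Neurod2 kept H3K27me3 at all 17 of its bins in both mutant lines and was the only one of 716 genes with at least 10 such bins to do so, with H3K4me2 in 2 and 4. Neurog1 kept 10 and 10 of 13, with H3K4me2 in 3 and 3. Neurog2 kept 6 and 2 of 12, with H3K4me2 in 4 and 4. Atoh1 kept 1 and 1 of 3 and Nhlh1 0 and 3 of 3, and neither had H3K4me2.

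Signalling genes held such bins less often than the HOX, homeobox and other developmental transcription factor lists. Of 19 Wnt ligands 10 held such bins, kept at 40.4 and 47.1%, and 0 of the 10 gained H3K4me2 and 2 gained H3K4me1 over 2 kb in both lines, beside 9.47 and 8.34% of all 2291 genes. Wnt3a kept 13 and 17 of 27 bins with H3K4me2 in 0 and 1, and Wnt7b 10 and 8 of 26 with 1 and 2. Wnt6 kept 3 and 3 of 9 bins and had H3K4me1 in 5 and 2 but H3K4me2 in none. Of 47 other secreted signals 15 held such bins (31.9%, beside 11.1% of all genes). Of these 15 genes 4 gained H3K4me2, beside 9.47% of all 2291 genes. Over this list H3K4me2 lay in 10.2 and 13.2% of bins, where all H3K27me3-only bins had 6.07 and 4.81%. The Wnt antagonists Sfrp1 and Sfrp2 kept 3 and 1 of 23 bins and 1 and 1 of 19. Fgf4, a growth factor of the early embryo, kept 4 and 12 of 17, and Gdf10, of the bone morphogenetic protein family, 3 and 7 of 15, both with H3K4me2 in none. Bmp4, a bone morphogenetic protein, kept 7 and 7 of 12 with H3K4me2 in 1 and 4.

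Receptor and channel genes of excitable cells held some of the longest stretches. Of 43 GABA and glutamate receptor genes 10 held such bins, beside 11.1% of all genes. Such bins covered 191 kb at Grik3 and 100 kb at Grik4, both kainate receptor subunits. Grik3 kept 16 bins in 236L and 85 in 236R and had H3K4me2 in 3 and 2. Grik4 kept 15 and 68 and had H3K4me2 in 2 and 1. Over the list 12.6 and 48.7% of bins were kept and 2.01 and 2.58% had H3K4me2. Potassium channel genes (23 of 92) kept 32.8 and 53.7% of bins and had H3K4me2 in 8.96 and 8.21% and H3K4me1 in 12.7 and 10.5%, where all H3K27me3-only bins had H3K4me2 in 6.07 and 4.81% and H3K4me1 in 7.94 and 6.21%. Of the 23 genes 1 gained H3K4me2 over 2 kb in both lines, where 9.47% of all 2291 genes did. Kcnj12 and Kcnj10, both inward rectifiers, kept 5 and 11 of 21 bins and 0 and 11 of 13. Grin2b, a subunit of the NMDA receptor, kept 0 and 1 of 15.

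The values of tissue-restricted families stand beside 12.0 and 33.0% kept over all H3K27me3-only bins in 236L and 236R. Their gene counts stand beside 11.1% of all genes holding such bins. Windows of neighbouring genes can share bins, so the genes counted are not all separate sites. Keratin and keratin-associated genes (18 of 112) kept 9.18% of bins in 236L and 63.3% in 236R, with H3K4me2 in none. Krt27, a hair follicle keratin, kept 2 and 12 of 17 bins. Olfactory receptor genes (34 of 1104) kept 3.62 and 34.8%, with H3K4me2 in 1.45% in each line, and muscle and liver genes (5 of 18) kept 0 and 10.5% with none. The sarcomere gene Ttn kept 0 of 28 bins in both lines. Cadherin and protocadherin genes (20 of 95) kept 17.1% in each line. These 20 genes held 41 bins in all, of which 14 lay at Cdh16, so many of them share bins. Fibroblast and endothelial genes (6 of 16) kept 16.3 and 45.0%. Pdgfrb, a growth factor receptor of pericytes and fibroblasts, kept 0 and 18 of 24 bins, and Tie1, an endothelial receptor, kept 7 and 7 of 28. Such bins were held by 3 of 354 vomeronasal receptor genes (0 and 25.0% of 8 bins kept) and by 2 of 16 lung epithelial genes (12.5%, beside 11.1% of all genes), with 13.3 and 40.0% of 15 bins kept.

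In the tuft cell list 4 of 13 genes held such bins (30.8%, beside 11.1% of all genes). Pou2f3, the regulator that defines the tuft-like subtype of small cell lung cancer, had 55 kb of them, of which 5 were kept in 236L and 24 in 236R, and 3 and 2 had H3K4me2. Sox9, a factor of epithelial progenitors, kept 5 and 10 of 15 bins with H3K4me2 in 4 and 3. Ascl2 kept 1 and 2 of 7 with none.

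Macrophage and immune genes (9 of 20 with such bins, beside 11.1% of all genes) separated the mutant lines. Their 48 bins had H3K4me2 in 29.2% in 236L and 2.08% in 236R, and H3K4me1 in the same shares, while H3K27me3 was kept at 18.8 and 45.8%. Csf1r, the receptor for macrophage colony-stimulating factor, had H3K4me2 in 4 and 0 of 8 bins. Spi1, the myeloid regulator PU.1, had it in 3 and 0 of 4, Ikzf1, a lymphoid regulator, in 3 and 0 of 8 and Itgam, an integrin of myeloid cells, in 2 and 0 of 8. H3K4me2 at macrophage markers was most extensive in the same library (21.3 kb, against 2.36 to 3.74 kb), and its part in these values was not tested. Cd3e, a component of the T cell receptor complex, kept H3K27me3 at 6 and 5 of 8 bins and had H3K4me2 in none, while its neighbour Cd3d kept 1 and 3 of 4 and had H3K4me2 in 1 and 1. Of the 9 genes 0 gained H3K4me2 over 2 kb in both lines, beside 9.47% of all 2291 genes.

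The genes of H3K4 methyltransferase complexes (0 of 15), cell cycle inhibitors (0 of 7) and housekeeping genes (0 of 15) held no H3K27me3-only bins of 2 kb. Among 78 cytosolic ribosomal protein genes 1 did. PRC1 and PRC2 subunit genes had 3 of 24 (12.5%, beside 11.1% of all genes), led by Pcgf1 with 12 kb of which 5 and 8 bins were kept.

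**Figure D4:**
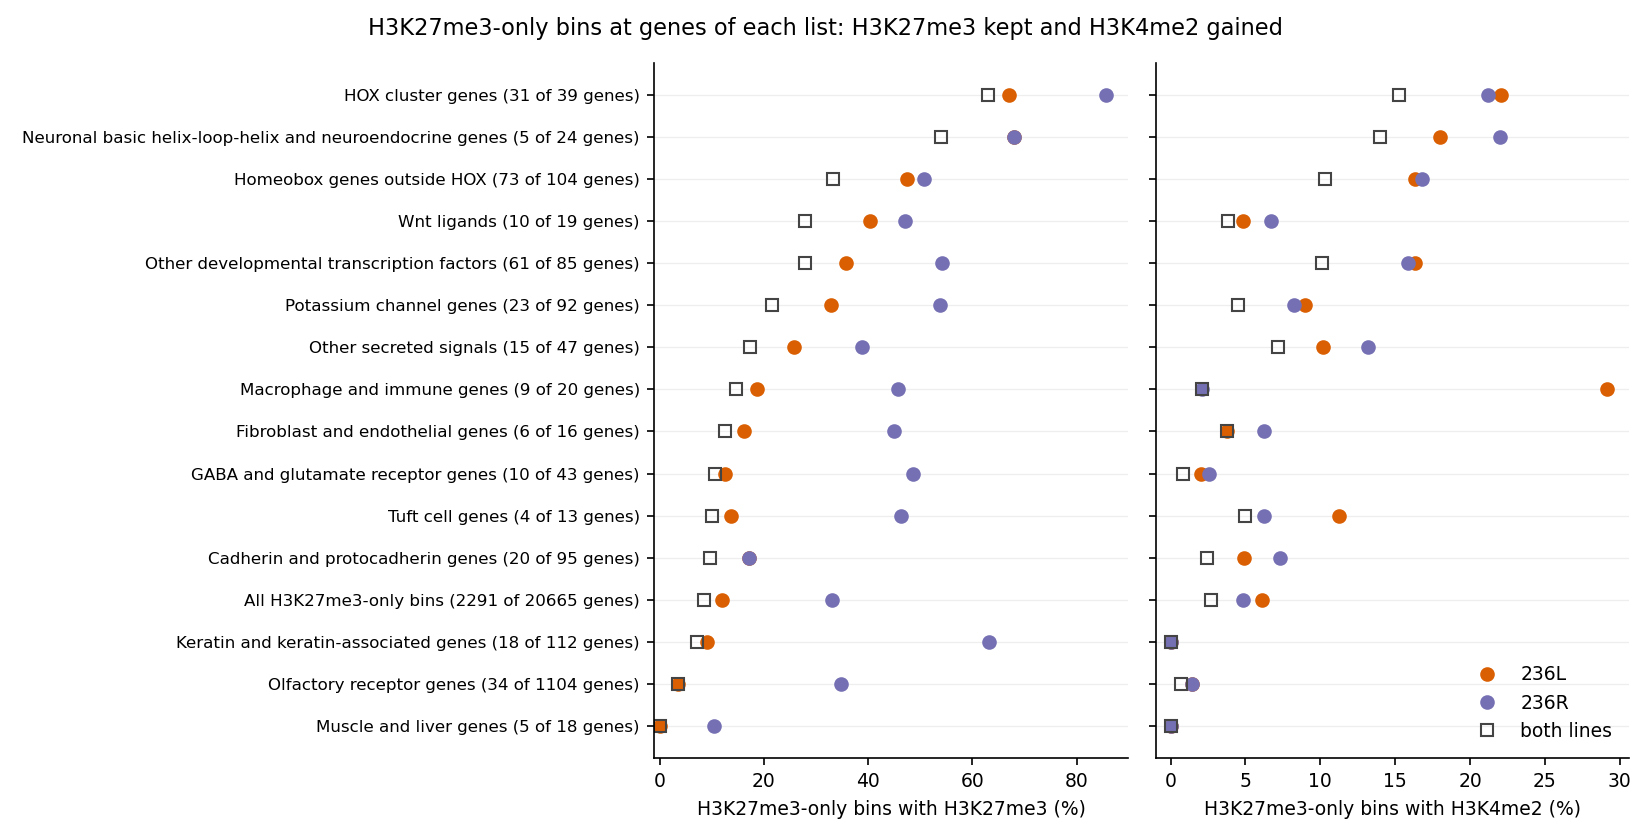
H3K27me3-only bins at the genes of each list with at least 4 genes holding 2 kb of such bins, and over all such bins (rows, with the number of those genes) that kept H3K27me3 (left, % of bins) or had H3K4me2 (right, % of bins) in 236L, 236R and both. HOX genes lead in H3K27me3 kept in both lines (63.0%), and the macrophage and immune list shows the widest gap in H3K4me2 between 236L (29.2%) and 236R (2.08%).

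Over all 2291 genes, 311 kept H3K27me3 at 50% or more of their bins in 236L, 883 in 236R and 208 (9.08%) in both. H3K4me2 over at least 2 kb of bins in each mutant line was found at 217 genes and H3K4me1 at 191, with 136 in both sets. The count for H3K4me2 was 376 without 159-1 in the choice of bins and 439 without 236R, and 114 with whole bins covered, 115 with no base of control H3K4 peaks and 112 in the gene body alone. The 217 included 59 that also kept H3K27me3 in both lines. At the other end, 68 of the 716 genes with at least 10 such bins kept none in either line. Pde11a, a phosphodiesterase, was the longest with 65 kb and had H3K4me2 in 2 and 3 bins. Enah, an actin regulator, followed with 40 kb and H3K4me2 in 2 and 1. Elovl2, a fatty acid elongase, had 36 kb with H3K4me2 in 1 and 2. Ubash3b, a phosphatase of immune receptor signalling, had 35 kb with H3K4me2 in 9 and 2 bins and H3K4me1 in 23 and 5. Snx10 had 28 kb with H3K4me2 in 5 and 3 and H3K4me1 in 12 and 1. Kifc3, Chst15, Cpxm2, Gsg1l and Rgma, with 30 to 33 kb each, had H3K4me2 in at most 2 bins of a line. Abi3, an actin regulator of immune cells, had 26 kb with 0 and 21 bins kept, H3K4me2 in 11 and 4 and H3K4me1 in 15 and 6.

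H3K27me3-only bins lay farther from genes than other Polycomb bins. Within 2.5 kb of a gene end were 19.5% of them, 33.0% lay in gene bodies and 47.4% between genes, where all bins gave 8.19, 35.5 and 56.3% and bins with control H3K4 methylation 62.1, 18.4 and 19.5%. Those near gene ends kept H3K27me3 most, at 25.0% in 236L and 45.5% in 236R, against 9.33 and 30.9% between genes. H3K4me2 lay in 16.4 and 12.4% of them near gene ends and in 3.07 and 3.27% between genes. Unmarked bins near gene ends had H3K4me2 in 2.81 and 0.952%.

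Among 31396 RefSeq start sites on chromosomes 1 to 19, 833 lay in these bins. Of the 833, 11.3% had a CpG-rich promoter (300 bases, GC of at least 55% and a ratio of observed to expected CG of at least 0.65), against 54.8% of the 885 starts in bins with control H3K4 methylation and 28.7% of all starts. The 94 CpG-rich starts kept H3K27me3 at 62.8% in 236L and 70.2% in 236R and had H3K4me2 at 73.4 and 75.5%. The 739 others kept 24.6 and 44.5% and had H3K4me2 at 24.1 and 19.9%. At CpG-rich starts in unmarked bins (102) H3K4me2 was found at 27.5 and 13.7%. Of the 161 starts that gained H3K4me2 in both lines 37.9% were CpG-rich, and of the 529 that gained it in neither 2.84%. The median CG count in 300 bases was 15 and 5. Of the promoters printed above, those of Hoxa5, Hoxa6 and Msx2 were CpG-rich and gained H3K4me2 in both lines, and that of Hoxd4 was neither. Snx10 gained it without being CpG-rich, missing the GC limit alone (54.3%) with 20 CG in 300 bases. Cpxm2 gained none with 17 CG in 300 bases. Among promoters named by the same rule but not printed, Hoxa3 and a start of Hoxa10 were CpG-rich and gained H3K4me2 in both lines. Hoxc4, Hoxa11, Hand2 and another start of Hoxa10 gained it in both lines without being CpG-rich. Of these, Hoxa11 and Hand2 missed the GC limit alone (51.0 and 50.3%). So did Hoxd3 (54.0%), which gained H3K4me2 in 236L alone. Those of Hoxa7 and Hoxa9 were not CpG-rich and did not gain it.

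Both marks also varied with what the control lines had nearby and with the strength of the control peak. The bins that touched a control H3K4 peak (2320 bins) had H3K4me2 at 28.2% in 236L and 29.4% in 236R, and kept H3K27me3 at 35.4 and 46.1%. The 7186 bins over 20 kb from such a peak had H3K4me2 at 3.20 and 1.80% and kept H3K27me3 at 3.65 and 22.1%. Unmarked bins at that distance had H3K4me2 at 0.152 and 0.0405%. All bins with H3K27me3 in both control lines were ranked by the lower of the 2 control H3K27me3 folds, which are the authors' own values, and split into 4 groups. In the lowest and the highest group H3K27me3 was kept at 3.72 and 32.4% in 236L and at 20.1 and 53.0% in 236R. H3K4me2 went from 2.08 to 14.9% and from 1.30 to 13.4%. Bins with control H3K4 methylation kept more in each rank group in both lines, from 38.5 and 42.3% in the lowest to 65.5 and 60.7% in the highest. Bins just inside the 50% limit (50 to 60% covered in the less covered control) kept 3.68 and 20.2%, and bins just outside it (40 to 50%) kept 2.87 and 17.6%.

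**Figure D5:**
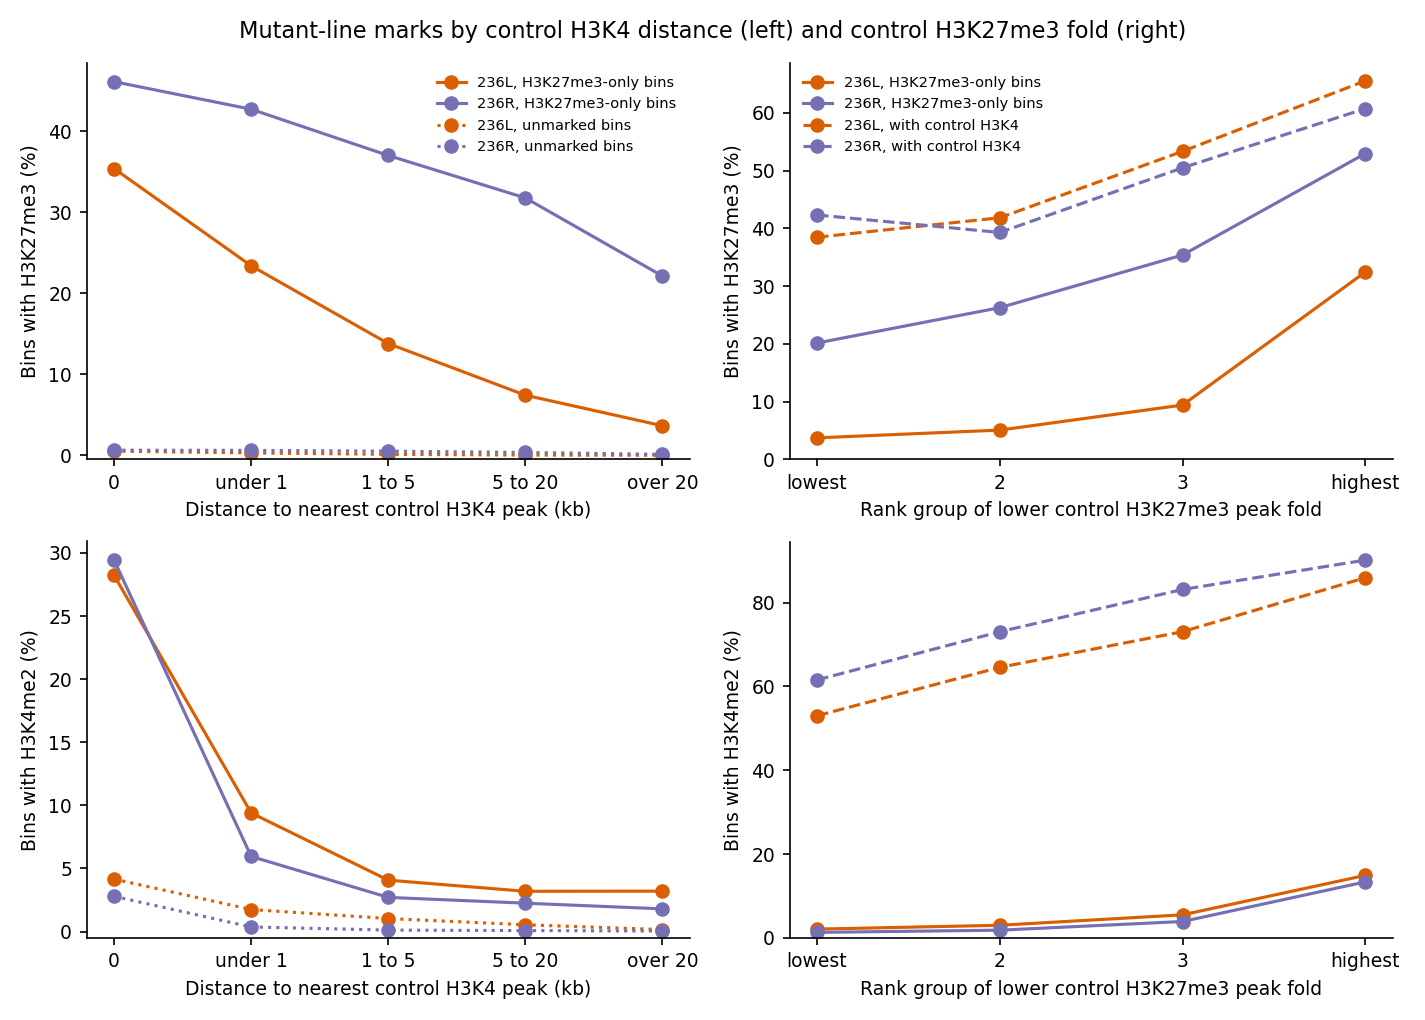
Share of bins (y axes, %) with H3K27me3 (top) and H3K4me2 (bottom) in 236L and 236R, by distance to the nearest control H3K4 peak (left, kb) and by rank group of the lower control H3K27me3 fold (right). H3K27me3-only bins touching a control H3K4 peak had H3K4me2 at 28.2 and 29.4%, those over 20 kb away at 3.20 and 1.80%.

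Gain of H3K4me2 and retention of H3K27me3 in the same line went together, which is given as a description with no test. H3K4me2 lay in 19.1% of kept and 4.31% of lost bins in 236L, and in 8.46 and 3.02% in 236R. H3K4me1 lay in 13.9 and 7.13% in 236L and in 11.6 and 3.56% in 236R. In unmarked bins H3K4me2 lay in 8.13% of bins with and 0.687% of bins without H3K27me3 in 236L, and in 1.10 and 0.212% in 236R. In the held-out control lines the shares of H3K4me2 were 0.746 and 0.290% (159-1) and 0.659 and 0.143% (1014). H3K4me1 did not follow this in the held-out control lines, with 1.64% of bins with and 1.65% of bins without H3K27me3 in 159-1, and 0.415 and 0.724% in 1014. Peak lists come from whole cultures, so they do not show whether both marks lay on the same chromatin.

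KDM6A was rare at these sites in the control lines. It was found in 122 bins (0.419%) in 159-1, 44 (0.151%) in 1014 and 23 (0.0790%) in both, where 0.656% of all bins had it in both. All bins include those with control H3K4 methylation, which the rule left out. Over every bin without control H3K4 methylation the share in both was lower, at 0.0192%. Bins with H3K27me3 and H3K4 methylation had it in 17.5 and 11.3%, and unmarked bins in 0.101 and 0.0426%. These other Polycomb bins carry control H3K4 methylation by the rule. The part of that choice in the difference below was not tested. The difference from the other Polycomb bins was -17.1 points in 159-1 and -11.1 in 1014 (mean -14.1 ± 4.24, SD, n = 2 lines; exact sign-flip permutation p = 0.5, the smallest possible). It was -7.74 where whole bins had to be covered, -8.70 where no base of control H3K4 peaks was allowed and -7.31 with peaks of a −log10 q of at least 3. Among the 782 bins with H3K4me2 in both mutant lines KDM6A lay in 12 (1.5%) in 159-1 and 4 (0.51%) in 1014. Among the 26739 with H3K4me2 in neither it lay in 92 (0.34%) and 35 (0.13%). The 2498 bins that kept H3K27me3 in both mutant lines had KDM6A at 1.76 and 0.721%. The 18527 bins that kept it in neither had KDM6A at 0.248 and 0.0648%. At HoxA a KDM6A peak was present in both control lines at Hoxa9.

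Of 919 miRNA hairpins on chromosomes 1 to 19, 25 lay in these bins, which are 1.18% of all bins. Those of the HOX clusters are shown because 3 of them share a seed (bases 2 to 8, in capitals) while their bins differed. Sequences are mature miRNAs from RefSeq, 5′ to 3′.
mmu-miR-196b-5p: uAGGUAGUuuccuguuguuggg
mmu-miR-196a-5p: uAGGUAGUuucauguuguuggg
mmu-miR-10b-5p: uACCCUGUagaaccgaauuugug
The bin of Mir196b (chr6:52230081-52230165, minus strand, HoxA) carried all 3 marks in both mutant lines. That of Mir196a-2 (chr15:102973350-102973434, plus strand, HoxC) kept H3K27me3 in both and had no H3K4 methylation. That of Mir196a-1 (chr11:96265164-96265265, plus strand, HoxB) had none of the 3 marks in either line. Mir10b (chr2:74726070-74726137, plus strand, HoxD), whose seed differs, kept H3K27me3 in 236R alone. Outside HOX, the bins of Mir125b-1 and Mir9-2 kept H3K27me3 in 236R and had H3K4me2 in both lines. That of Mir142, a miRNA of blood cells, kept H3K27me3 in 236R and had H3K4me2 in 236L alone. The bin of Mir1247 had H3K4me2 in both lines and kept no H3K27me3. Other bins, such as those of Mir290a, Mir1963 and Mir208a, had none of the 3 marks in either mutant line.

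Chromosomes differed in how many of these bins they held and in how many kept the mark. Chromosome 11 held 3336 bins, 2.74% of its length, and chromosome 19 held 158, or 0.258%. The 158 bins of chromosome 19 kept H3K27me3 at 58.9% in 236L and 79.8% in 236R. Those of chromosome 8 (1885 bins) kept 6.58 and 8.01%, so that on this chromosome 236R stood close to 236L.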

How the data were processed

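ChIP-seq peak lists of 14 libraries were used, 1 per library, for H3K27me3, H3K4me2 and H3K4me1 in 4 lines and KDM6A in the 2 control lines. Another 10 input libraries were not analysed here. Bowtie2 2.4.2, MACS3 3.0.0a7 and the mm10 assembly are named per the submitters' processing notes; for the threshold, control track and handling of duplicates, nothing is given in the sources used here. Each deposited peak carries the authors' fold ratio over background and its −log10 p-value and −log10 q-value; the lowest deposited −log10 q over the lists was 1.005. For 2 H3K4me2 control lists the file name and the sample label give different lines; labels were used. The H3K27me3-only bins are the same either way.

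Peaks were merged per list and set on 1 kb bins of chromosomes 1 to 19, a bin being marked at 50% cover (Python 3.11.15, numpy 2.4.6, matplotlib 3.10.9). The code was tested on simulated data. Shares per line were compared by exact permutation over lines, so the number of lines limits the p-values. With so few lines they depend on direction and rank alone and do not measure the spread between samples. Genes were named by rank: share of the window, bins gaining H3K4me2 or H3K4me1, all or no bins kept, the 4 longest of each list and the longest domains. Bmp4, Spi1, Nhlh1, Cd3d and the Evx1, Olig2 and Ttll6 domains were named after their values were seen. No rank named the miRNAs. The bins and lists were chosen with earlier results of these data known. One neuroendocrine marker gene is not reported here. Alternatives changed the cover, bin size, peak strength, list length, gene window and lines used.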

Additional observations from a re-analysis of the deposited data

How the results depend on the processing

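No direction reversed under any alternative run. The number of H3K27me3-only bins (29128) was 52433 when any base of a bin counted, 16275 with whole bins, 4982 with −log10 q of at least 3, 4706 with lists trimmed to equal length, 61459 with bins of 500 bases and 14542 with bins of 2 kb. It ranged from 39242 to 99858 leaving out 1 control line. The difference in H3K27me3 kept (-31.3 points) ranged from -43.2 to -19.5 leaving out 1 line. For H3K4me2 (4.99 points) the mean was 3.12 with no base of control H3K4 methylation, 15.9 with −log10 q of at least 3, 17.6 with equal length and 2.46 over 5 kb from control H3K4 peaks, and 2.74 to 5.38 leaving out 1 line. For H3K4me1 (5.31 points) it was 4.67 with whole bins, 3.91 with no such base, 12.8 with −log10 q of at least 3, 15.8 with equal length and 3.21 over 5 kb, and 3.26 to 5.49 leaving out 1 line. The KDM6A difference (-14.1 points) was -19.7 with any base, -7.74 with whole bins, -8.70 with no such base and -7.31 with −log10 q of at least 3. Genes with at least 2 kb (2291) numbered 729 with −log10 q of at least 3, 613 with equal length, 1462 in the gene body alone and 4351 with 50 kb on each side, and 2760 to 4752 leaving out 1 control line. Genes gaining H3K4me2 (217) numbered 112 to 443 over all alternatives. The causes were not tested. Depth is unknown, so a missing peak may reflect a shallow library. No paired analysis was possible because the lines carry no replicate numbers that pair control with mutant samples.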
